A study of Mus musculus with 9 samples.

Results

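The genes described here are 10 members of the Notch pathway in the mouse cornea: the 4 receptors Notch1, Notch2, Notch3 and Notch4, the 4 ligands Jag1, Jag2, Dll1 and Dll4, and the target genes Hes1 and Hey1. A member was read from the probe set that the array annotation gives to that symbol alone, and where a gene had several such probe sets the one with the highest mean over the 9 arrays was taken. All 10 were measured, of 22180 genes in the data, and no filter on low intensity was applied. RNA of whole corneas was measured on single-colour arrays in 3 groups. Rescued mice had the Dstncorn1 mutation, in the gene of the actin depolymerising factor destrin, and by the labels also a genetic ablation of Srf, which encodes serum response factor, in the corneal epithelium. Mutant mice had the Dstncorn1 mutation with Srf left in place. Wild-type (WT) mice had neither change. Each group had 3 biological replicates by the labels, each made by pooling 10 corneas of 5 mice. Mice of every group, WT included, received doxycycline by injection from postnatal day 28 to day 58, were collected at day 58, and came from a mixture of FVB, Swiss Black, 129, C57BL6/J and A.BY strains. Which promoter drove the Srf ablation is not stated in the labels, and pooling leaves no value for a single mouse.

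Notch signalling passes between touching cells. A Delta-like or Jagged ligand on one cell pulls on a Notch receptor of its neighbour, the receptor is cut by the protease Adam10 and by gamma-secretase, and the freed intracellular part joins Rbpj and Mastermind-like proteins on DNA to turn on Hes and Hey genes, which encode transcriptional repressors. In stratified epithelia such as that of the cornea, Notch1 and Notch2 act in differentiation and in keeping cell fate, while in blood vessels Dll4, Notch1 and Notch4 act in endothelial cells during sprouting and artery formation and Notch3 acts in mural cells.

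Promoter sequences are shown for Dll4 and Dll1, the members that passed the test in all 3 comparisons, and for Notch3, the receptor with the most negative mutant minus WT difference. They are RefSeq sequences of build GRCm38.p6, read 5′ to 3′ on the strand of the gene, from 250 bases before to 50 bases after an annotated start. Dll1 has 2 such starts. The windows are chr2:119325534-119325833 (plus strand) for Dll4, chr17:15375774-15376073 (minus strand) for the first Dll1 start, chr17:15376883-15377182 (minus strand) for the second Dll1 start, and chr17:32166841-32167140 (minus strand) for Notch3. Capitals mark matches, on either strand, to an E-box (CANNTG) or an N-box (CACNAG), short motifs that basic helix-loop-helix factors, Hes proteins among them, are known to bind.
Dll4: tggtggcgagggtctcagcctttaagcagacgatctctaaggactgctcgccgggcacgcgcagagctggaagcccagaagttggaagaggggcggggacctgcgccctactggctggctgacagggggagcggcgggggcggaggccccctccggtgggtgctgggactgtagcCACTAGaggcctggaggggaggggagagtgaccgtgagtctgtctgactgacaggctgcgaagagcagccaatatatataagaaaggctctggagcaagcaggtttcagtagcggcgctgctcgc
Dll1, first start: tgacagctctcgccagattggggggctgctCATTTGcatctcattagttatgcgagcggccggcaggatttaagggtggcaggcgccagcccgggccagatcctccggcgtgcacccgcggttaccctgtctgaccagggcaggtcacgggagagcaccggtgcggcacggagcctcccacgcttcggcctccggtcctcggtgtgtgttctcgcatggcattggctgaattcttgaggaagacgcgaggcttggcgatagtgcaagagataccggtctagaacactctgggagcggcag
Dll1, second start: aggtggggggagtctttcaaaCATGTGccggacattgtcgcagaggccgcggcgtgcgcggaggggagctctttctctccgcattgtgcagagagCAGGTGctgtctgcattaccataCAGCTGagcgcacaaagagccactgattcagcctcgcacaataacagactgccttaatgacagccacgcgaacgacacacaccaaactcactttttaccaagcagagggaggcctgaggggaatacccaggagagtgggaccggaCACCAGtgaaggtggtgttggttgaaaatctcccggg
Notch3: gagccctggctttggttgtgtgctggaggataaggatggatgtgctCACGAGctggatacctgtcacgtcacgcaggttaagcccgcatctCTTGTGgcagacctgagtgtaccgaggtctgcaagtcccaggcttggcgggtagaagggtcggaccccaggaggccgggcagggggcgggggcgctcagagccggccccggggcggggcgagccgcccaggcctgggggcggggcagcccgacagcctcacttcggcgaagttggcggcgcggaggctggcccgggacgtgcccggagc
The Dll4 window held 1 match, the N-box CACTAG, whose first base lay at position -75 from the start. The window of the first Dll1 start held the E-box CATTTG at -220. The window of the second Dll1 start held 3 E-boxes, CATGTG at -229, CAGGTG at -155 and CAGCTG at -132, and the N-box CACCAG at 14. The Notch3 window held 2 N-box matches, at -204 and at -159. Windows were found for 8 of 10 members, 9 windows in all, and the others are Hes1 and Hey1. An E-box stood in 4 of 9 windows, against 72.3% of 32851 RefSeq promoter windows of the same length, and an N-box in 5 of 9, against 42.5%. The core of the Rbpj motif (TGGGAA) was found in 0 of 9 windows, against 25.6% of all windows, and the CArG box, the motif of serum response factor, in 0 of 9, against 1.63%. A match describes the letters only, and the lack of one says only that these letters are not in this window.

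Values are log2 intensities as the authors normalised them, and base 2 was inferred from their range. Intensities of different probe sets are not comparable, so each member is compared only with itself across groups. Array medians lay between 6.75 and 6.78, and arrays of 1 group correlated at 0.990 to 0.993 over all rows. Dstn, the mutated gene, averaged 5.62 ± 0.01 in rescued, 5.63 ± 0.15 in mutant and 12.57 ± 0.02 in WT corneas, and Srf averaged 9.01 ± 0.51, 10.68 ± 0.12 and 9.13 ± 0.13 in the same groups (SD, n = 3 each). Srf was lower in rescued than in mutant corneas (-1.67, adjusted p = 0.000841), but rescued and WT pools overlapped (-0.12, interval -0.59 to 0.35, adjusted p = 0.787), so whole-cornea Srf did not show a level below WT. All 10 measured corneal epithelium markers lay above 6.77, the median of all values, on every array, and their mean level was 12.37 to 12.52 on rescued, 12.49 to 12.55 on mutant and 12.39 to 12.41 on WT arrays, and Krt12, the corneal keratin, lay at 13.92 ± 0.02, 13.53 ± 0.03 and 13.95 ± 0.02 in those groups. Of 9 lens markers, 2 lay below 6.77 in every group, and the mean of the 9 was 8.11 to 8.36 on rescued and 8.22 to 8.91 on mutant arrays, against 9.15 to 9.46 on WT arrays. The pools differed in sex-linked transcripts. The Y-linked mean was 5.34 on WT array 1 and 5.15 on WT array 3, and 7.16 to 9.77 elsewhere. Xist was 6.12 on mutant array 2 and 11.8 to 12.9 elsewhere.

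In mutant corneas the Notch genes moved in both directions: Dll4, Notch2, Notch4 and Hey1 were higher than in WT, and Dll1, Notch3, Jag2 and Hes1 were lower. These 8 of 10 members were called at an adjusted p under 0.05 (limma, Benjamini-Hochberg over all 22180 genes), where 31.6% of all genes were called. By direction, 4 of 10 members were higher, against 15.1% of all genes, and 4 of 10 lower, against 16.5%. The median absolute log2 difference of the members was 0.36, against 0.15 over all genes. The call rate depends on brightness, and of the 12696 genes at or above the median intensity of all rows 53.1% were called in this comparison, with 9 of 10 members called when the fit was limited to them. Between rescued and mutant corneas 2 of 10 members were called, Dll4 lower and Dll1 higher in rescued, against 13.3% of all genes. Of all genes 6.88% were lower and 6.46% higher in rescued. The members' median absolute log2 difference there was 0.18, against 0.11 over all genes. Between rescued and WT corneas 4 of 10 members were called, Dll4 higher and Dll1, Notch3 and Jag2 lower in rescued, against 13.7% of all genes. By direction, 1 of 10 was higher, against 6.28% of all genes, and 3 of 10 lower, against 7.43%, and the median absolute log2 difference was 0.20, against 0.11 over all genes. Any pair of these comparisons shares the arrays of a group, so their values are given side by side and are not independent. All of these are levels in whole corneas, in which fewer cells of a type and less RNA per cell cannot be told apart.

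**Figure D1:**
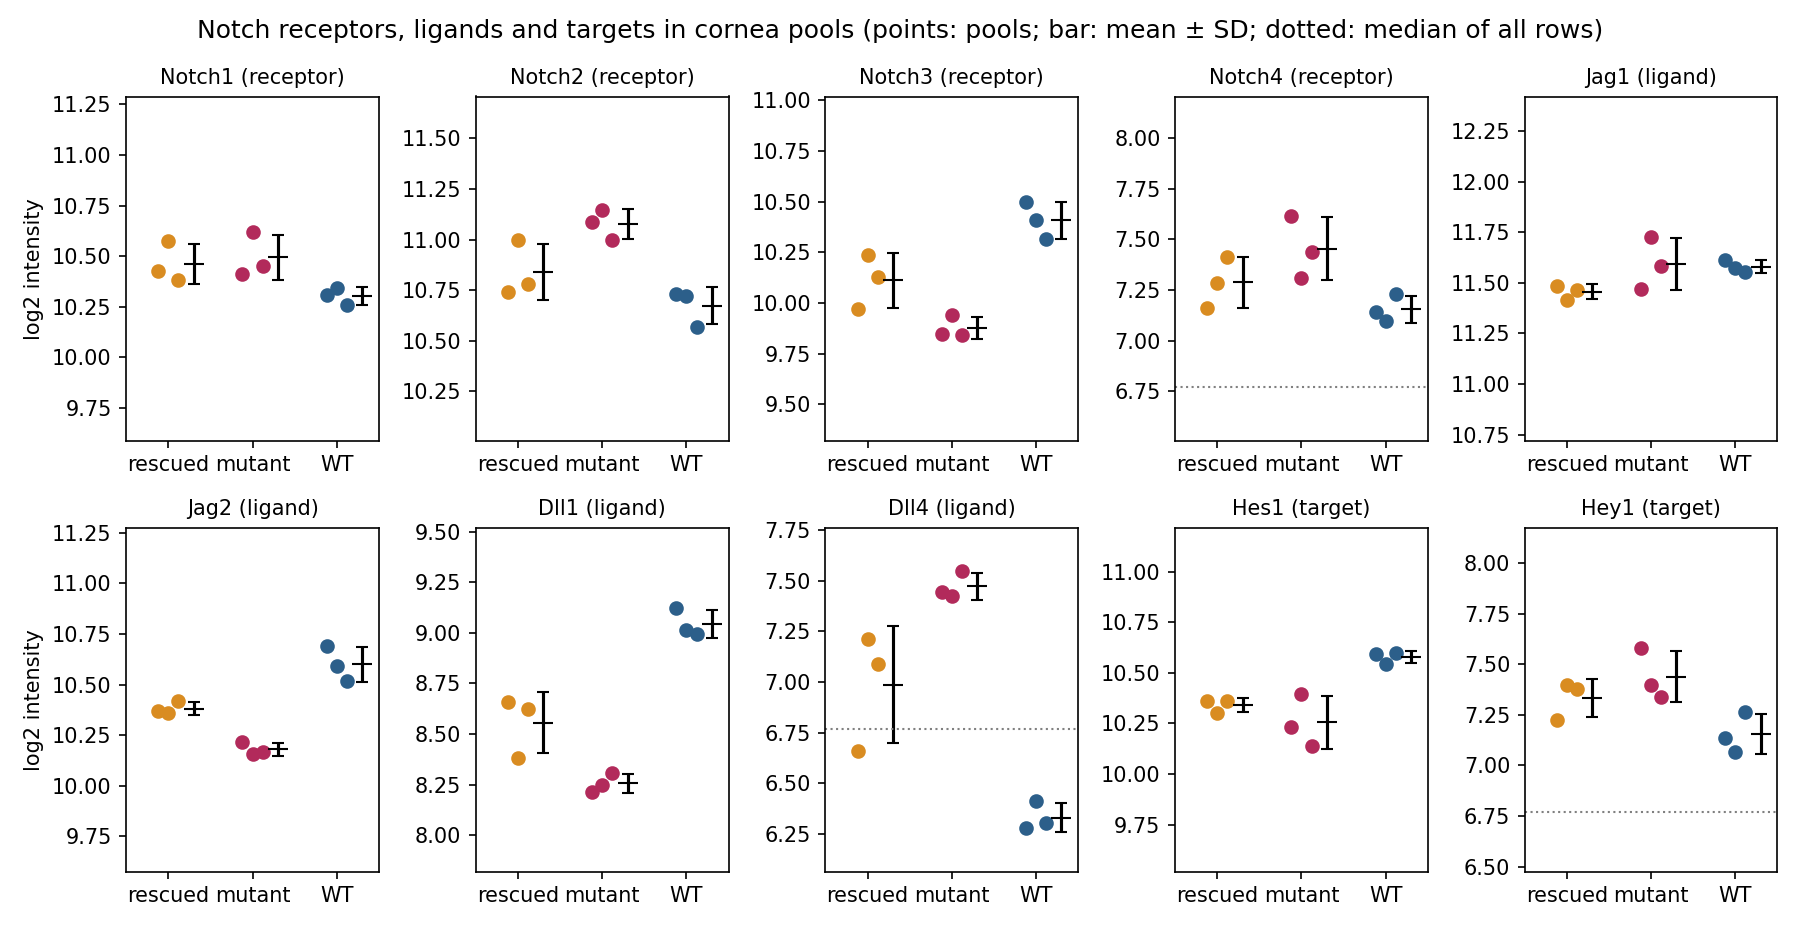
Log2 intensity of each of the 10 members on each of the 9 arrays, one panel a gene with its own vertical axis, with rescued, mutant and WT pools from left to right; points are pools, bars are the group mean ± SD, and the dotted line is the median of all values (6.77) where it falls in the panel. Dll4 is highest in the 3 mutant pools (7.42 to 7.55) and lowest in the 3 WT pools (6.28 to 6.41), and Dll1 runs the other way (8.21 to 8.31 in mutant and 8.99 to 9.12 in WT pools).

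Among the ligands, Dll4, which vessel endothelium uses to restrain sprouting, had the largest difference of any member (RefSeq gene span chr2:119325784-119335666 in GRCm38.p6, the build of every gene span given here). Its log2 intensity was 6.66, 7.21 and 7.09 in rescued pools, 7.45, 7.42 and 7.55 in mutant pools, and 6.28, 6.41 and 6.31 in WT pools. The 3 groups did not overlap, with rescued pools between the other groups. The means were 6.99 ± 0.29 in rescued, 7.47 ± 0.07 in mutant and 6.33 ± 0.07 in WT corneas (SD, n = 3 each). Mutant minus WT was 1.14 on the log2 scale (SE 0.13, 95% interval 0.86 to 1.42, adjusted p = 9.57e-05). The WT mean lay below 6.77, the median of all values, a level at which signal above background is not shown. The measured intensity was 2.21-fold higher in mutant corneas, and this ratio is a lower estimate of the change in RNA if background is additive. Rescued minus mutant was -0.48 (interval -0.77 to -0.20, adjusted p = 0.0322), an intensity 1.40-fold lower in rescued. Rescued minus WT was 0.66 (interval 0.38 to 0.94, adjusted p = 0.00817), at least 1.58-fold higher in rescued. The mutant minus WT and rescued minus WT calls held under the 13 alternatives of scaling, filter, model and left-out pool, but only the mutant minus WT call met a 2-fold minimum. The rescued minus mutant call did not: its adjusted p was 0.0799 without mutant pool 1, 0.0586 without mutant pool 2, 0.104 without mutant pool 3, 0.0547 without rescued pool 3 and 0.0694 when fitted on those 6 arrays alone. Rescued pool 1 was the lowest of its group at 6.66, and without it rescued minus mutant was -0.32, still called at an adjusted p of 0.0363.

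Dll1, the Delta-like ligand that is known for its part in somite and lymphocyte development, ran the other way (chr17:15367354-15376932). Its log2 intensity was 8.66, 8.38 and 8.63 in rescued pools, 8.21, 8.25 and 8.31 in mutant pools, and 9.12, 9.01 and 8.99 in WT pools. The groups did not overlap, and rescued pools again lay between mutant and WT pools. The means were 8.56 ± 0.15 in rescued, 8.26 ± 0.05 in mutant and 9.04 ± 0.07 in WT corneas (SD, n = 3 each). In mutant corneas Dll1 was 1.73-fold lower (mutant minus WT -0.79 on the log2 scale, SE 0.08, interval -0.97 to -0.60, adjusted p = 7.06e-05). It was 1.23-fold higher in rescued than in mutant corneas (0.30, interval 0.11 to 0.48, adjusted p = 0.0413) and 1.40-fold lower in rescued corneas than in WT (-0.49, interval -0.67 to -0.30, adjusted p = 0.0045). The rescued minus mutant call was lost without any 1 of mutant pools 1, 2 and 3 (adjusted p = 0.127, 0.0892 and 0.0787), without rescued pool 1 (0.123) or rescued pool 3 (0.137), and with 6 arrays alone (0.0735). A second Dll1 probe set, with a lower mean, averaged 7.11 ± 0.13 in rescued, 7.04 ± 0.10 in mutant and 7.09 ± 0.07 in WT corneas, a mutant minus WT difference of -0.06. With the mean of both probe sets the mutant minus WT difference was -0.42 (adjusted p = 0.00232), and rescued corneas were called neither against mutant (0.19, adjusted p = 0.155) nor against WT (-0.23, adjusted p = 0.0808).

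Jag2, a Jagged ligand of stratified epithelia and other tissues, was lower in mutant corneas (chr12:112907803-112929812). Rescued pools had Jag2 log2 intensities of 10.37, 10.36 and 10.42, mutant pools of 10.22, 10.16 and 10.17, and WT pools of 10.69, 10.59 and 10.52, with no overlap between any 2 groups. Mutant minus WT was -0.42 (SE 0.06, interval -0.56 to -0.28, adjusted p = 0.000672), a 1.34-fold lower intensity. Rescued minus mutant was 0.20 (interval 0.06 to 0.34, adjusted p = 0.0654), which did not pass, though it passed with quantile normalisation (adjusted p = 0.041). It also passed when dim genes were left out (0.0248) and with limma's trend and robust options (0.0198). Rescued minus WT was -0.22 (interval -0.36 to -0.08, adjusted p = 0.0485), a call just inside the threshold. It was lost without rescued pool 1, 2 or 3 (adjusted p = 0.119, 0.134 and 0.0704), without WT pool 1 or 2 (0.145 and 0.109), with the 6 arrays alone (0.0938) and with arrays centred on their medians (0.0518).

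Jag1, the ligand mutated in human Alagille syndrome, passed in none of the comparisons (chr2:137081451-137116520). Rescued pools had Jag1 log2 intensities of 11.49, 11.41 and 11.46, mutant pools of 11.47, 11.73 and 11.58, and WT pools of 11.61, 11.57 and 11.55. Mutant pools spanned the whole WT range, and rescued pools all lay below WT pools. Mutant minus WT was 0.01 (interval -0.15 to 0.18, adjusted p = 0.92), rescued minus mutant was -0.14 (interval -0.30 to 0.03, adjusted p = 0.268) and rescued minus WT was -0.13 (interval -0.29 to 0.04, adjusted p = 0.319).

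**Figure D2:**
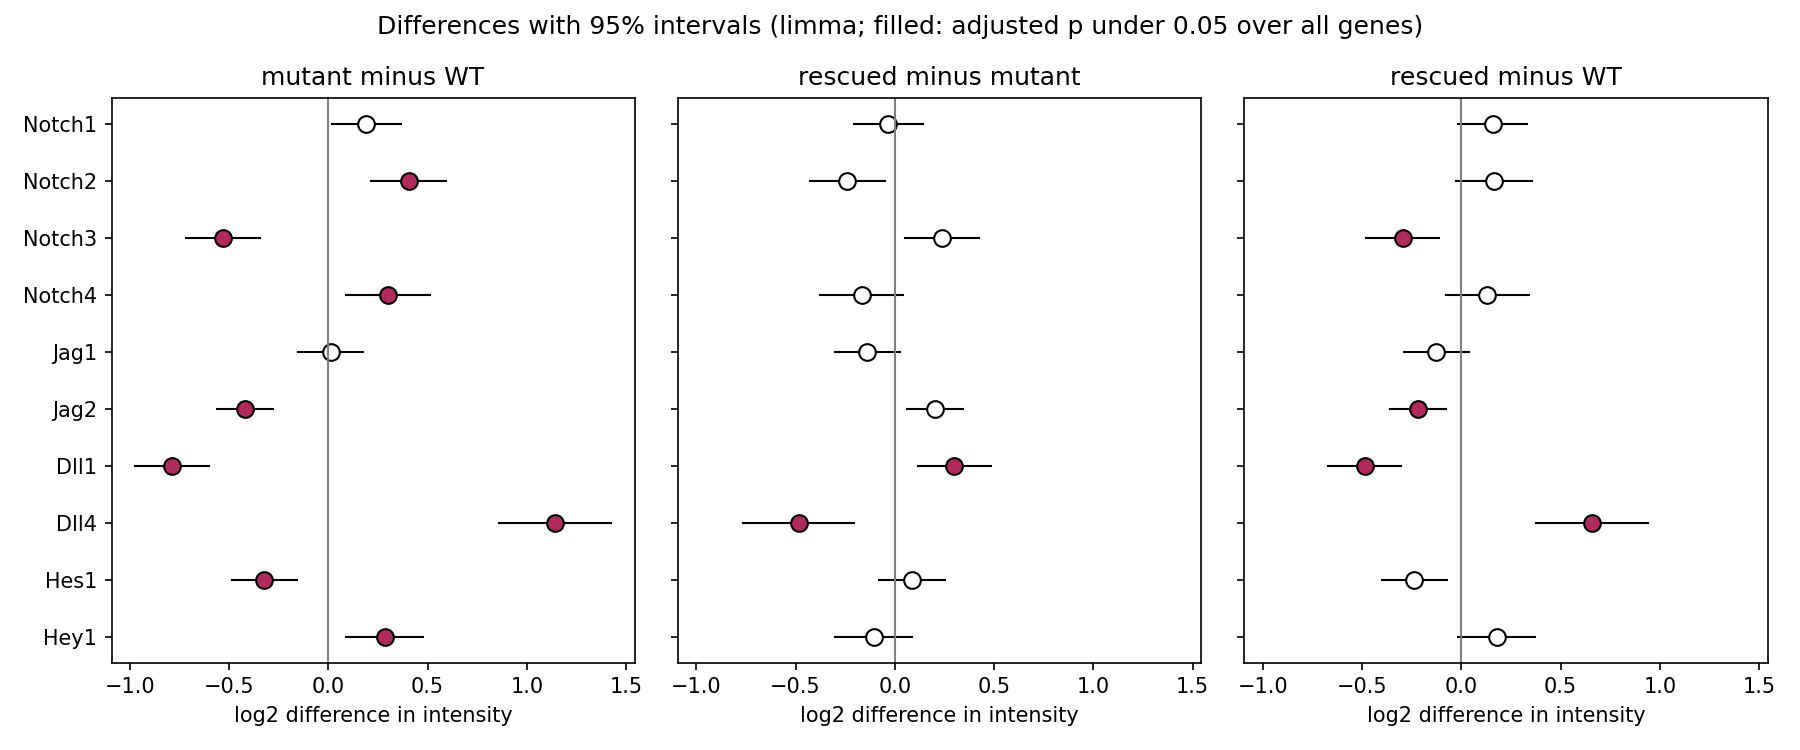
Log2 difference of each member (rows, receptors first, then ligands and targets) in the 3 comparisons, with 95% intervals from limma as bars and filled points where the adjusted p is under 0.05. Mutant minus WT runs from -0.79 for Dll1 to 1.14 for Dll4, and in rescued minus mutant the intervals of Dll4, Dll1, Jag2, Notch2 and Notch3 leave out 0.

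Among the receptors, Notch3, the receptor of vascular mural cells and also of some epithelia, was lower in mutant corneas (chr17:32120820-32166896). Rescued pools had Notch3 log2 intensities of 9.97, 10.24 and 10.13, mutant pools of 9.85, 9.94 and 9.84, and WT pools of 10.50, 10.41 and 10.31. The groups did not overlap, and rescued pools lay between the others. Mutant minus WT was -0.53 (SE 0.08, interval -0.72 to -0.35, adjusted p = 0.000834), a 1.45-fold lower intensity. Rescued minus mutant was 0.24 (interval 0.05 to 0.42, adjusted p = 0.094) and did not pass, though it passed without rescued pool 1 (0.31, adjusted p = 0.0468). It also passed when dim genes were left out (0.0452) and with limma's trend and robust options (0.0411). Rescued minus WT was -0.30 (interval -0.48 to -0.11, adjusted p = 0.043). That call was lost without rescued pool 1 (adjusted p = 0.13), rescued pool 3 (0.0777), WT pool 1 (0.135) or WT pool 2 (0.106), and with 6 arrays alone (0.0807).

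Notch2, a receptor of epithelia and many other tissues, was higher in mutant corneas (chr3:98013538-98150367). Its log2 intensity was 10.74, 11.00 and 10.78 in rescued pools, 11.09, 11.15 and 11.00 in mutant pools, and 10.73, 10.72 and 10.57 in WT pools. The mutant pools were the 3 highest, with rescued pool 2 just below mutant pool 3, and the lowest rescued pool lay close to the highest WT pool without overlap. The mutant minus WT difference was 0.40 (SE 0.08, interval 0.21 to 0.60, adjusted p = 0.00483), a 1.32-fold higher intensity. The rescued minus mutant difference was -0.24 (interval -0.43 to -0.05, adjusted p = 0.0987) and rescued minus WT was 0.17 (adjusted p = 0.253). Neither passed, though rescued minus mutant passed without rescued pool 2 (-0.32, adjusted p = 0.0363). It also passed when dim genes were left out (0.048) and with limma's trend and robust options (0.039).

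Notch1, the receptor best known in keratinocyte differentiation, was not called in any comparison (chr2:26457902-26503822). Rescued pools had Notch1 log2 intensities of 10.43, 10.57 and 10.38, mutant pools of 10.41, 10.62 and 10.45, and WT pools of 10.31, 10.34 and 10.26. Both other groups lay wholly above WT and overlapped each other. The mutant minus WT difference was 0.19 (SE 0.08, interval 0.02 to 0.37, adjusted p = 0.0929), which passed when limma's trend and robust options were used (adjusted p = 0.0416) or dim genes were left out (0.048). Rescued minus WT was 0.16 (interval -0.02 to 0.33, adjusted p = 0.232) and rescued minus mutant was -0.03 (interval -0.21 to 0.14, adjusted p = 0.84).

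Notch4, a receptor found mainly in endothelial cells, was higher in mutant corneas by a small step (chr17:34564286-34588543). Its log2 intensity was 7.16, 7.28 and 7.41 in rescued pools, 7.62, 7.31 and 7.44 in mutant pools, and 7.14, 7.10 and 7.23 in WT pools. Mutant pools did not overlap WT pools, and rescued pools overlapped both. The mutant minus WT difference was 0.30 (SE 0.09, interval 0.09 to 0.51, adjusted p = 0.0352), a 1.23-fold higher intensity. The call was lost without mutant pool 1 (0.22, adjusted p = 0.124), mutant pool 3 (0.0761), WT pool 1 (0.0876) or WT pool 2 (0.108). The rescued minus mutant difference was -0.17 (adjusted p = 0.3) and rescued minus WT was 0.13 (adjusted p = 0.429).

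The target genes differed in direction. Hes1, a repressor gene that Notch turns on in many tissues, was lower in mutant corneas (chr16:30065357-30067796). Rescued pools had Hes1 log2 intensities of 10.36, 10.30 and 10.36, mutant pools of 10.23, 10.40 and 10.14, and WT pools of 10.60, 10.54 and 10.60. All WT pools lay above all other pools, and rescued and mutant pools overlapped. Mutant minus WT was -0.32 (SE 0.07, interval -0.49 to -0.16, adjusted p = 0.00742), a 1.25-fold lower intensity. Rescued minus WT was -0.24 (interval -0.40 to -0.07, adjusted p = 0.0627) and did not pass in the main fit. It passed with the 6 arrays alone (0.0492), when dim genes were left out (0.0274) and with limma's trend and robust options (0.0212). Rescued minus mutant was 0.09 (interval -0.08 to 0.25, adjusted p = 0.52).

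Hey1, a target known from endothelial cells and the heart, was higher in mutant corneas (chr3:8663359-8667038). Its log2 intensity was 7.22, 7.40 and 7.38 in rescued pools, 7.58, 7.40 and 7.34 in mutant pools, and 7.13, 7.07 and 7.26 in WT pools. Mutant pools did not overlap WT pools, and rescued pools overlapped both. The mutant minus WT difference was 0.28 (SE 0.09, interval 0.09 to 0.48, adjusted p = 0.031), a 1.22-fold higher intensity. The call was lost without mutant pool 1 (0.21, adjusted p = 0.112), mutant pool 2 (0.0521), WT pool 1 (0.0825) or WT pool 2 (0.108). The rescued minus mutant difference was -0.11 (adjusted p = 0.503) and rescued minus WT was 0.18 (adjusted p = 0.225).

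Over all members, mutant and WT pools did not overlap for 9 of 10 genes, where 44.7% of all genes did not overlap. In 5 of 10 the mutant pools were higher, against 21% of all genes, and in 4 of 10 lower, against 23.7%. Rescued and mutant pools did not overlap for 5 of 10, against 32.2% of all genes, with 3 of 10 higher in rescued, against 15.1%, and 2 of 10 lower, against 17.1%. Rescued and WT pools did not overlap for 8 of 10, against 31.6% of all genes, with 3 of 10 higher in rescued, against 13.4%, and 5 of 10 lower, against 18.2%. These shares are over all genes, dim ones included, whereas all 10 members averaged at or above the median intensity of all rows. The share without overlap among such brighter genes was not counted. Only Dll4, 1 of 10 members, was called with a change of at least 2-fold between mutant and WT, against 5.03% of all genes, and 0 of 10 were so called in rescued against mutant, where 1.41% of all genes were, or in rescued against WT, where 1.68% were.

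Markers of other cells of the cornea moved together with some members. Of 16 blood endothelium markers, 14 were higher and 1 lower in mutant than in WT corneas, 8 were lower and 0 higher in rescued than in mutant, and 13 were higher and 1 lower in rescued than in WT. Their median log2 difference was 1.32 for mutant minus WT, -0.54 for rescued minus mutant and 0.81 for rescued minus WT. The mean level of the list was 7.64, 7.93 and 7.76 on rescued arrays, 8.44, 8.06 and 8.38 on mutant arrays, and 6.87, 6.91 and 6.88 on WT arrays. Cdh5, the cadherin of endothelial junctions, averaged 9.03 ± 0.21 in rescued, 9.82 ± 0.29 in mutant and 6.43 ± 0.16 in WT corneas (SD, n = 3 each). The markers that did not rise were Kdr, a VEGF receptor, which was lower in mutant than in WT corneas (-0.59, adjusted p = 0.0133), and Erg, an endothelial transcription factor, which was not called (-0.17, adjusted p = 0.312). Among 7 markers of pericytes and smooth muscle, 4 rose and 0 fell in mutant corneas against WT. The list's mean level was 7.80 to 8.01 on rescued, 8.04 to 8.35 on mutant and 7.12 to 7.23 on WT arrays. Its median log2 difference was only 0.44 for mutant minus WT, -0.12 for rescued minus mutant and 0.11 for rescued minus WT. Rgs5, a pericyte marker, was at least 27.9-fold higher in mutant corneas than in WT (4.80 on the log2 scale). This 1 gene made up most of the shift of the list's mean. In contrast, Pdgfrb, which pericytes share with stromal fibroblasts, differed by -0.05 (adjusted p = 0.81) and Notch3 was lower. Of 6 arterial markers 3 were higher and 0 lower in mutant than in WT corneas, and 4 of 6 lay below 6.77 in all groups.

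**Figure D3:**
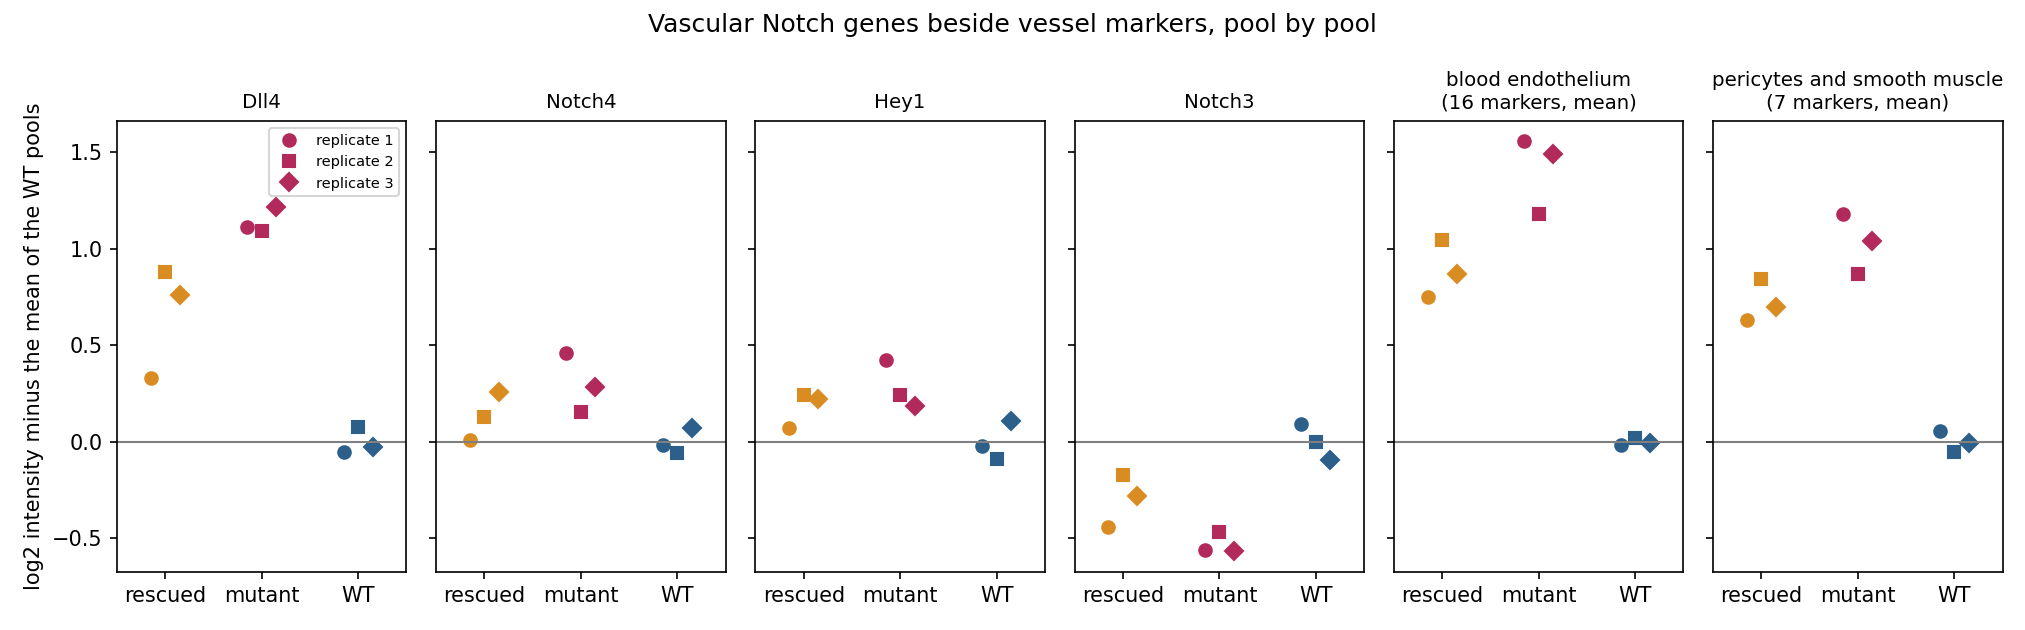
Log2 intensity minus the mean of the WT pools for Dll4, Notch4, Hey1 and Notch3 and for the mean of 16 blood endothelium markers and of 7 pericyte and smooth muscle markers, one point a pool with its shape giving the replicate, with rescued, mutant and WT pools from left to right. The endothelial mean is highest in mutant pools and lowest in WT pools (8.06 to 8.44 and 6.87 to 6.91 before subtraction), Dll4 has the same order of groups, and Notch3 has the opposite order. Most of the shift in the pericyte and smooth muscle mean comes from Rgs5 (mutant minus WT 4.80, against a list median of 0.44).

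Within a group, the order of the pools in Dll4, Notch4, Hey1 and Notch3 matched that of the endothelial mean in some cases and not in others. Mutant pool 1 had the highest endothelial mean, 8.44, with the highest Notch4 and Hey1, but Dll4 was highest in pool 3. Mutant pool 2 had the lowest endothelial mean, 8.06, with the lowest Notch4 and Dll4, but Hey1 was lowest in pool 3. Rescued pool 1 had the lowest endothelial mean, 7.64, and the lowest Dll4, Notch4 and Hey1, and pool 2 had the highest endothelial mean, 7.93, with the highest Dll4 and Hey1, but Notch4 was highest in pool 3. Notch3 in rescued pools (9.97, 10.24 and 10.13) had the order of the endothelial mean, but in mutant pools (9.85, 9.94 and 9.84) it was highest in pool 2. Some pools differed by little, such as mutant pools 1 and 2 in Dll4 (7.45 and 7.42). These orders rest on 3 pools a group and are descriptions. The part of vessel cells in the values of Dll4, Notch4 and Hey1 was not tested. Corneal epithelium markers moved both ways in mutant corneas, 4 of 10 higher and 3 lower than in WT. Of 6 keratocyte markers 0 were higher and 4 lower, and of 5 corneal endothelium markers 0 were higher and 4 lower. Of 8 macrophage markers 7 were higher and 1 lower, and of 9 lens markers 0 were higher and 5 lower. Their part in the lower Dll1, Notch3, Jag2 and Hes1 was not tested either.

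Outside the 10 members, 73 of 76 listed genes of the wider pathway were measured, and their changes in mutant corneas were mixed as well. In mutant against WT corneas 13 were higher and 16 lower, 39.7% of them in all, against 31.6% of all genes. In rescued against mutant corneas 5 were higher and 4 lower, 12.3%, against 13.3% of all genes. In rescued against WT corneas 9 were higher and 6 lower, 20.5%, against 13.7% of all genes. Of the 73 genes, 9 lay below 6.77 in all groups, and the call rate depends on brightness. In the fit limited to genes at or above the median intensity, 53.1%, 30.2% and 28.7% of genes were called in these 3 comparisons. The share of the wider genes called in that fit was not counted.

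Among genes listed by family under ligand endocytosis and ubiquitin ligases, Neurl3, of the Neuralized family, and Epn3, an epsin of clathrin-coated endocytosis, moved in opposite directions. Whether these 2 genes act on Notch ligands in the cornea was not tested. Neurl3 was 3.50-fold higher in mutant corneas than in WT (1.81 on the log2 scale, adjusted p = 5.14e-06), lower in rescued than in mutant (-0.61, adjusted p = 0.0104) and higher in rescued than in WT (1.20, adjusted p = 0.000316). Epn3 had log2 intensities of 10.91, 11.03 and 11.00 in rescued pools, 9.90, 10.01 and 9.95 in mutant pools, and 10.92, 10.94 and 10.83 in WT pools. Rescued and WT pools overlapped, and mutant pools lay below both. Epn3 was 1.92-fold lower in mutant corneas than in WT (adjusted p = 5.07e-06) and 2.03-fold higher in rescued than in mutant (adjusted p = 1.97e-05), and rescued minus WT was 0.08 (adjusted p = 0.47). Mib2, a Mind bomb ubiquitin ligase, was lower in mutant than in WT corneas (-0.42, adjusted p = 0.00146) and higher in rescued than in mutant (0.31, adjusted p = 0.0188). Of the 8 genes of this group 1 was higher and 2 lower in mutant than in WT corneas (37.5%, against 31.6% of all genes). The other members of the group, Mib1, Neurl1a, Neurl1b, Epn1 and Epn2, were not called there.

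Of 10 other ligands and ligand-like proteins, 3 were higher and 2 lower in mutant than in WT corneas (50%, against 31.6% of all genes). Cntn1, a cell adhesion protein reported to bind Notch, was 2.67-fold higher (1.42, adjusted p = 0.000261) and was lower in rescued than in mutant corneas (-0.88, adjusted p = 0.0122). Mfap5, a microfibril protein, was at least 2.6-fold higher in mutant corneas than in WT (1.38, adjusted p = 2.85e-05) and was also higher in rescued than in WT (1.01, adjusted p = 0.000922). Egfl7, an endothelial secreted protein that is also in the blood endothelium list, was 1.94-fold higher (0.95, adjusted p = 0.000959). Ccn3, a matricellular protein reported to bind Notch1, was lower both in mutant (-0.71, adjusted p = 0.00503) and in rescued (-0.71, adjusted p = 0.0127) than in WT corneas, and rescued minus mutant was 0.00.

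Genes that process the receptor changed by smaller steps. Adam10, the protease of the ligand-dependent cut, had log2 intensities of 11.04, 10.99 and 10.90 in rescued pools, 11.37, 11.41 and 11.24 in mutant pools, and 10.61, 10.64 and 10.53 in WT pools, with no overlap between any 2 groups. It was 1.68-fold higher in mutant corneas than in WT (0.75, adjusted p = 3.35e-05), lower in rescued than in mutant (-0.36, adjusted p = 0.00844) and higher in rescued than in WT (0.39, adjusted p = 0.00612). Furin, which cuts the receptor on its way to the surface, was 1.58-fold higher in mutant corneas than in WT (0.66, adjusted p = 0.000191). Psen2, a catalytic subunit of gamma-secretase, was lower (-0.43, adjusted p = 0.0026), and Aph1c, another subunit gene, passed only in rescued against WT (-0.38, adjusted p = 0.0382). Lfng, the Fringe glycosyltransferase that shifts receptors towards Delta-like ligands, was 1.38-fold lower in mutant corneas than in WT (-0.46, adjusted p = 0.000342) and lower in rescued than in WT (-0.27, adjusted p = 0.0201). Rfng, another Fringe, was higher in mutant than in WT corneas (0.29, adjusted p = 0.0208), and Poglut1, which adds glucose to the receptor, passed only in rescued against WT (-0.27, adjusted p = 0.0473). Of 11 inhibitors and turnover genes, 0 were higher and 1 was lower in mutant than in WT corneas (9.09%, against 31.6% of all genes). The lower one was the ubiquitin ligase Itch (-0.31, adjusted p = 0.00919).

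The nuclear complex and its corepressors, the largest group of the wider list, had 5 of 17 higher and 7 lower in mutant than in WT corneas. That was 70.6%, against 31.6% of all genes and 53.1% in the fit limited to genes at or above the median intensity. Kat2b, an acetyltransferase, was 1.74-fold higher in mutant corneas than in WT (0.80, adjusted p = 4.07e-05) and lower in rescued than in mutant (-0.44, adjusted p = 0.00534). Tle1, a Groucho corepressor, was at least 1.65-fold higher in mutant corneas than in WT (0.72, adjusted p = 0.00107). Its means were 6.34 in rescued, 6.62 in mutant and 5.90 in WT corneas, all below 6.77, where signal above background is not shown. The coactivators Maml3 and Maml2 were 1.62-fold (-0.70, adjusted p = 0.000646) and 1.51-fold lower (-0.60, adjusted p = 0.00017) in mutant than in WT corneas. Both were higher in rescued than in mutant corneas, Maml3 by 0.38 (adjusted p = 0.0409) and Maml2 by 0.36 (adjusted p = 0.0102). Of 10 other Hes, Hey and related repressors, 5 lay below 6.77 in all groups. In this group 1 was higher and 1 lower in mutant than in WT corneas (20%, against 31.6% of all genes). Bhlhe41, a circadian repressor, was 2.30-fold lower in mutant corneas than in WT (-1.20, adjusted p = 0.000259) and lower in rescued than in WT (-0.76, adjusted p = 0.011). Bhlhe40 passed only in rescued against WT (-0.35, adjusted p = 0.00951). Hey2, a target gene of arterial endothelium that is also among the arterial markers, was at least 1.17-fold higher in mutant corneas than in WT (0.23, adjusted p = 0.0461). It is among the dim genes, with means of 6.40 in rescued, 6.48 in mutant and 6.25 in WT corneas, all below 6.77.

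**Figure D4:**
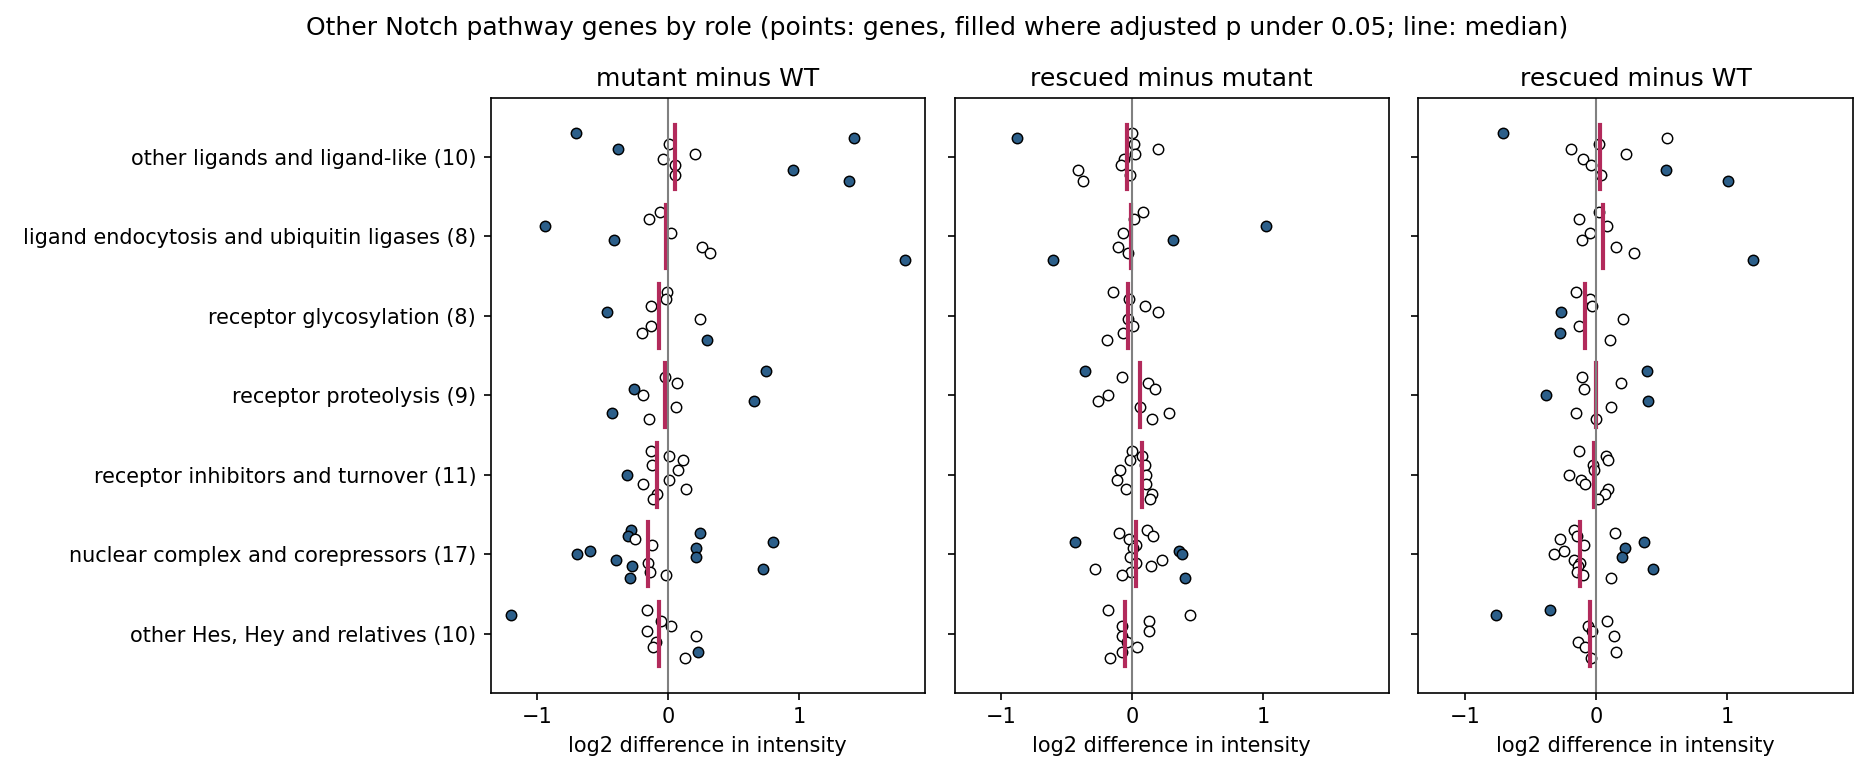
Log2 differences of the 73 measured genes of the wider Notch pathway in the 3 comparisons, in rows by role, with one point a gene, filled where the adjusted p is under 0.05, and a line at the median of each role. Neurl3 (1.81) and Cntn1 (1.42) have the largest positive and Bhlhe41 (-1.20) the largest negative mutant minus WT difference, and Epn3 has the largest rescued minus mutant difference (1.02).

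Dll4 was the only member whose group means spanned at least 1 on the log2 scale. The genes whose pattern over the 9 arrays lay closest to it were Dio3, a deiodinase that inactivates thyroid hormone, Cdc42ep2, an effector of the GTPase Cdc42, and Adam23, a membrane protein of the ADAM family. After each gene was centred on its own mean, their root mean square distances from Dll4 over the 9 arrays were 0.105, 0.109 and 0.114 log2 units, the 3 smallest among 17309 genes compared. Some of these levels were dim. Dio3 averaged 6.46 in rescued and 5.92 in WT corneas, and Adam23 6.39 and 5.83, all below 6.77, with Adam23 at that level in mutant corneas. Arrays of 1 group share their genotype, so this likeness mostly describes the order of the 3 groups.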

How the data were processed

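Total RNA of whole mouse corneas (9 pools) was extracted with Trizol, and per the labels the Ambion WT Expression kit and the Affymetrix WT Terminal Labeling kit were used for amplification and biotin labelling. The deposited table gives log2 intensities after a normalisation by the authors that the sources used here do not state. Base 2 is an inference from the values, which run from 2.14 to 14.3. Raw scanner files were not used here.

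Of 41345 rows, 23521 have exactly 1 symbol in the array annotation, 1814 have several and 16010 are not listed; 22180 genes resulted, and 1082 of them had more than 1 row. All 9 arrays were fitted with limma 3.58.1 in R 4.3.3 (lmFit, contrasts.fit, eBayes, two-sided) with Benjamini-Hochberg adjustment over all genes, and a gene was called at an adjusted p under 0.05. The fit was tested on simulated data with independent noise and changes in a small part of the genes. That setting differs from these data, in which 31.6% of genes were called between mutant and WT, so it does not bear on the calls. SEs are limma's moderated SEs, and the number of arrays limits the precision. Folds are ratios of measured intensity. A fold whose lower group mean lay below 6.77, the median of all values, is marked as at least that size. It is then a lower estimate of the ratio in RNA, on the assumption of additive background, and the interval of the measured difference still applies. Median differences over all genes were -0.02 for mutant minus WT, -0.00 for rescued minus mutant and -0.01 for rescued minus WT.

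Members and lists were chosen with earlier results of these data known. All members were named, with up to 4 called genes of each wider Notch group by largest difference, and the 3 genes closest to a member spanning at least 1 log2 unit. Markers were chosen for being known in a cell type. Some listed genes are not reported here. The lymphatic list had 3 of 4 markers higher and 0 lower in mutant than in WT corneas, and the retina and iris list 0 of 7 higher and 4 lower. The labels do not say that replicate numbers pair pools. Deviations from the group means correlated over genes at -0.02 to 0.06 for same-numbered pools and at -0.10 to 0.08 for different-numbered pools. With 3 pools a group these values cannot exclude something shared by pools of 1 number. Gene coordinates and promoters are RefSeq, GRCm38.p6; the sources used here do not state the build behind the array annotation. Alternatives were quantile normalisation, array centring, a brightness filter, a gene's rows averaged, robust eBayes with a trend, a fit of only 6 arrays, the replicate block, stricter thresholds and leaving out each pool. Python 3.11.15 with matplotlib 3.10.9 drew the figures.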

Additional observations from a re-analysis of the deposited data

How the results depend on the processing

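No member's difference changed sign where it was called. The main counts of called members were 8 for mutant minus WT, 2 for rescued minus mutant and 4 for rescued minus WT. For mutant minus WT the count was 6 to 8 when 1 pool was left out, 7 with a replicate block, 6 at an adjusted p under 0.01 and 1 with a 2-fold minimum. The count was 9 with the brightness filter (53.1% of genes called) and 9 with trend and robust options (33.5%), both of which add Notch1. For rescued minus mutant it was 0 to 3 when 1 pool was left out, 5 with the brightness filter (30.2% of all genes tested there called, against 13.3% in the main count), 5 with limma's trend and robust options (16.6%), 1 with a gene's rows averaged, 1 with a replicate block, 0 on the 6 arrays alone, 0 at an adjusted p under 0.01 and 0 with a 2-fold minimum. At an unadjusted p under 0.05 in limma, 5 members passed on all 9 arrays and on the 6 arrays alone. For rescued minus WT it was 2 to 4 when 1 pool was left out, 2 with a replicate block, 2 at an adjusted p under 0.01 and 0 with a 2-fold minimum, but 5 with the brightness filter (28.7% of genes called) and 5 with trend and robust options (16.8%), both of which add Hes1, and 5 members had an unadjusted p under 0.05. The labels do not say that replicate numbers pair pools. The replicate block took Hey1 (adjusted p = 0.0617) out of mutant minus WT and Dll1 (0.0553) out of rescued minus mutant. It also took Notch3 (0.0624) and Jag2 (0.0759) out of rescued minus WT. The brightness filter tests fewer genes. For the other settings the cause was not tested. With 3 pools a group, single calls near the threshold turn on 1 pool. Folds from dim probe sets, such as that of Dll4 in WT, are lower estimates only on the assumption of additive background.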

Other observations

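A probe set that the annotation shares between Gm14207 and Dll4, and that was therefore not used for Dll4, averaged 6.64 ± 0.02 in rescued, 6.58 ± 0.05 in mutant and 6.56 ± 0.10 in WT corneas (SD, n = 3 each), all below 6.77, with a mutant minus WT difference of 0.03. Rbpj, the DNA-binding partner of all Notch receptors, was higher in mutant than in WT corneas by 0.21 (adjusted p = 0.0153, limma) and in rescued than in WT by 0.20 (adjusted p = 0.0455), and rescued minus mutant was -0.02. Nrarp, a feedback inhibitor that Notch turns on, had a mutant minus WT difference of 0.14 (adjusted p = 0.459). Both genes were named after their values were seen.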
